A study of Mus musculus with 3 samples.

Results

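Mouse esophageal epithelial cells that were dividing were examined in a culture called PC. They were picked by their counts of 8 transcripts of late interphase and mitosis. A cell belonged to them if it held at least 500 genes, at least 1000 unique molecular identifiers (UMIs, each standing for 1 captured transcript) and at most 20% mitochondrial UMIs. It also needed at most 1 UMI in all of the mesenchymal genes Vim, Col5a1, Grem1, Aebp1 and Ccn5 (a sum called M) and at least 4 UMIs in all of Nusap1, Ube2c, Ccna2, Birc5, Cdc20, Top2a, Cdk1 and Cenpf (a sum called P). These were 1839 of 14925 kept cells, or 12.3% (exact binomial 95% interval 11.8% to 12.9%), out of 18116 barcodes. They were compared with the 9436 cells that had M of at most 1 and P of 0, called P-zero cells here. Among all 13100 cells with M of at most 1, the dividing cells made up 14.0% (13.4% to 14.6%).

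PC cells, whose tissue is labelled as esophageal cancer, come from organoids of mouse esophagus, which are epithelial cultures grown in a gel. Their floxed Trp53 alleles, encoding p53, were deleted with an adenovirus carrying Cre and EGFP, and Cdkn2a, encoding p16 and p19Arf, was knocked out by CRISPR. The cells express Cas9 constitutively, received a barcode library by Lipofectamine transfection, grew for 3 passages, and were sorted as live RFP-positive cells before droplet sequencing of transcript 3' ends. All cells described here, dividing or not, share this genotype and handling, and the series follows precursor cells of esophageal preneoplasia by barcodes. The labels list 3 libraries of this culture, for expression, barcodes and scars, and the values come from 1 expression matrix, so cell barcodes cannot be compared between matrices here. There are no replicates among the values used, and no statistical test between sets of cells was made. All intervals cover counting error only, and reads of different cells of 1 culture are not replicates.

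As background, a cell copies its DNA in S phase, pauses in G2 and then enters mitosis, when cyclin B with the kinase Cdk1 condenses the chromosomes and builds the spindle. The anaphase-promoting complex with Cdc20 then marks cyclin B and the separase inhibitor securin for destruction, the sister chromatids part and cytokinesis cuts the cell. In squamous epithelium such as that of the esophagus, division belongs to the basal layer, and cells that leave it differentiate. Many transcripts of this phase are made late in the cycle under the MuvB, B-Myb and FoxM1 proteins, which act at promoters with CHR elements, and NF-Y, which binds CCAAT boxes.

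The 8 genes that chose the cells give the check of their name and nothing more. The level used throughout, CPM, is the summed UMIs of a gene scaled to a total of 1000000 UMIs in the same cells. In the dividing cells the ubiquitin-conjugating enzyme Ube2c was at 1112 CPM, topoisomerase Top2a at 696 CPM, survivin (Birc5) at 527 CPM and Cdk1 at 397 CPM. Cenpf stood at 300 CPM, Nusap1 at 137 CPM, Cdc20 at 116 CPM and cyclin A2 (Ccna2) at 103 CPM. The P-zero cells were at 0 by construction. P ran from 4 to 56 with a median of 11. The gate held the mesenchymal genes low in both sets, with Vim at 5.81 and 4.94 CPM.

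Markers of other cells that the gate did not use were read as whole lists. Of 8 immune markers 5 were at 0 in the dividing cells, and the list summed to 5.53 CPM against 7.77 CPM. Of 6 endothelial markers 4 were at 0, including Cdh5, with sums of 0.692 and 1.65 CPM. A further list of 12 mesenchymal genes summed to 411 CPM, against 635 CPM in P-zero epithelial cells and 7044 CPM in mesenchymal-like cells (M of at least 4, P of 0). Fibronectin (Fn1), at 299 CPM, and Sparc, at 102 CPM, made up most of the 411 CPM, and Col1a2, Pdgfrb and Thy1 were at 0. Epcam, the epithelial adhesion molecule, stood at 1244 CPM against 1241 CPM.

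The values went against a name limited to G2 and mitosis. Genes of DNA replication, which belong to S phase, were also high. At an equal depth of 1500 UMIs per cell, 57.3% of the cells (54.9% to 59.6%) held at least 3 UMIs of a list of 33 replication genes. The share was 5.12% in P-zero cells. It was 16.2% (14.1% to 18.5%) in mesenchymal-like cells with P of 0, so passing this cutoff does not by itself mark S phase. The chosen cells are therefore called dividing epithelial cells.

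Depth moved with the choice. A cell needs 4 UMIs of P to enter, and the dividing cells had a median of 3818 UMIs (3734 to 3927) and 1840 genes against 2713 UMIs (2678 to 2744) and 1397 genes in P-zero cells. Mitochondrial UMIs had a median share of 2.27% against 2.90%. Doublets were neither called nor removed. The cells just inside the threshold were close to those just outside it. The 182 cells with P of 4 had 1113 CPM of a list of 23 spindle genes and 2240 CPM of the replication list. The 218 cells with P of 3 had 1033 and 2069 CPM.

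A gene was called different when its levels differed at least 2-fold, the higher level was at least 10 CPM and the exact Poisson intervals did not overlap. An interval printed beside a ratio is its exact 95% binomial interval given both counts. Of 8783 genes outside the gate that reached 10 CPM in either set of cells, 514 (5.85%) were called higher and 142 (1.62%) lower in dividing cells. The median ratio over these genes was 0.968. Because expression of division genes chose the cells, these counts describe the cells chosen and are no evidence of their own. The plot of levels in both sets shows the spread of the called genes about the line of equal levels.

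**Figure D1:**
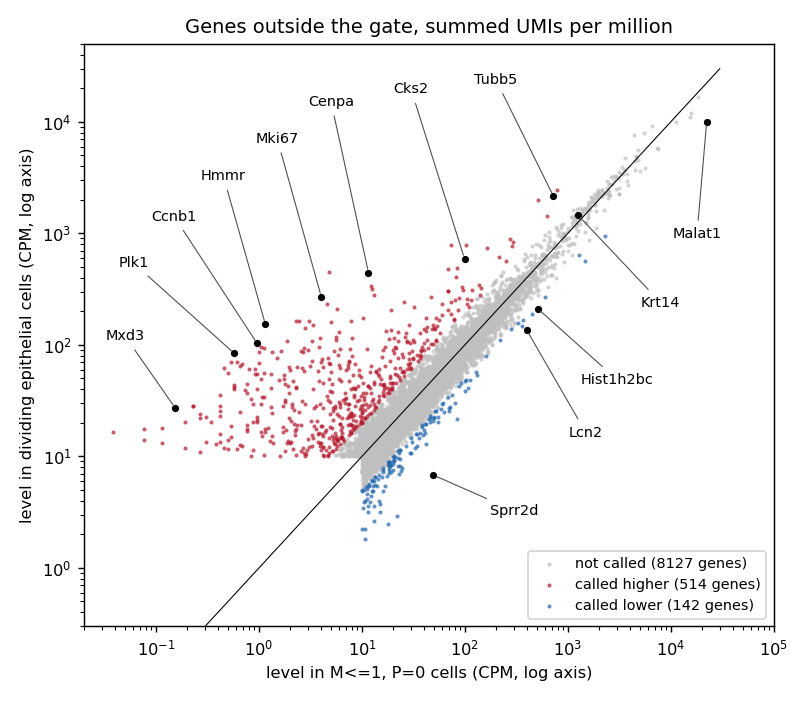
Level of each tested gene in P-zero epithelial cells (x axis, CPM, log scale) and in dividing epithelial cells (y axis, CPM, log scale), with genes called higher in red, lower in blue and the rest in grey; the line marks equal levels. Genes called higher reach ratios such as 146 for Plk1 (83.8 against 0.574 CPM), and among genes called lower the largest difference is 7.46-fold, for Tcp11l2 (2.91 against 21.7 CPM).

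Promoters are shown because the genes with the largest ratios can be read at the sequence level. A pair of motifs was searched on both strands: CCAAT, the NF-Y core (ATTGG on the other strand), and TTTGAA, a form of the CHR element (TTCAAA on the other strand). Each motif was counted by itself, and matches of both can share an end letter. The window ran from 250 bases before to 50 after the start of transcription (RefSeq, GRCm38.p6). The 4 genes called higher with the largest ratios whose windows held both were Kif18b, a microtubule-depolymerising kinesin (chr11:102925075-102925374, minus strand), Espl1, the separase that cuts cohesin (chr15:102296043-102296342, plus strand), Plk1, polo-like kinase (chr7:122159185-122159484, plus strand), and Hmmr, a spindle protein (chr11:40733388-40733687, minus strand). Each is given 5′ to 3′ along its gene with the motifs in capitals.
Kif18b: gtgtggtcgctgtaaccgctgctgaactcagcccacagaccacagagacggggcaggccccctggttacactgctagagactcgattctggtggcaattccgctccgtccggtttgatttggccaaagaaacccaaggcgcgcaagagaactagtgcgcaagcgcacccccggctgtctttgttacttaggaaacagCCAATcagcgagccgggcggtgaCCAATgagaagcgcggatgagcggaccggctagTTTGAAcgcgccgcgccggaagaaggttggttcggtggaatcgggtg
Espl1: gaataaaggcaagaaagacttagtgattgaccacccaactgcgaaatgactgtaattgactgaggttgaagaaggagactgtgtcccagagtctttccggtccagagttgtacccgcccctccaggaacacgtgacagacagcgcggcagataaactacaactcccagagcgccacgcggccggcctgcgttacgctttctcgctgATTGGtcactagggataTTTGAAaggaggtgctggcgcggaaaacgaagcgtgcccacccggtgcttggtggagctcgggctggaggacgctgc
Plk1: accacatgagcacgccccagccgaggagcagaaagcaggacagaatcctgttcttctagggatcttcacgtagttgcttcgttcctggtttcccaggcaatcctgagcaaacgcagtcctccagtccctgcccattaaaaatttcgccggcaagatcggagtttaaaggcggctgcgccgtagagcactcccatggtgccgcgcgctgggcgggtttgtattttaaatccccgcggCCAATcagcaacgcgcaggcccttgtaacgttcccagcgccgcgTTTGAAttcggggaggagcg
Hmmr: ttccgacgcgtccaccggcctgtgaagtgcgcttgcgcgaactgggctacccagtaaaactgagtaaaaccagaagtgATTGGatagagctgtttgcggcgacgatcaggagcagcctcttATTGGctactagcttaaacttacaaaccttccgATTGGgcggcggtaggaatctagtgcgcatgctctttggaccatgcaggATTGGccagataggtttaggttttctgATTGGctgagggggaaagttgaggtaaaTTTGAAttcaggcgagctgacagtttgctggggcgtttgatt

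In Kif18b the CCAAT motifs lie 53 and 30 bases before the start and TTTGAA 3 bases after it. Espl1 has ATTGG 44 bases and TTTGAA 27 bases before the start. Plk1 has CCAAT 14 bases before and TTTGAA 30 bases after the start, and Hmmr has 5 ATTGG motifs, between 172 and 20 bases before, with TTTGAA 8 bases after. A promoter was matched for 427 of the 514 genes called higher, and 62.1% of these held CCAAT, 31.6% TTTGAA and 22.7% both. Over the 7137 matched promoters of all tested genes the shares were 39.3%, 12% and 5.32%, and over all 27025 listed promoters they were 37.9%, 18.1% and 7.12%. A match is a run of letters and not a shown binding site.

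Mitotic cyclins and kinases were called higher in all 16 of 16 tested genes of their list, with a median ratio of 71.6. Their summed level was 2009 CPM in dividing cells and 190 CPM in P-zero cells. Plk1, which starts mitotic entry and spindle assembly, stood at 83.8 against 0.574 CPM, a ratio of 146 (87.8 to 262). It was found in 11.5% of dividing cells at equal depth and 0.137% of P-zero cells. Cyclin B1 (Ccnb1), the partner of Cdk1, stood at 103 against 0.957 CPM, a ratio of 108 (72.3 to 167). Cyclin B2 (Ccnb2) was at 160 against 5.05 CPM. The chromosome passenger kinase Aurkb had a ratio of 131, the centrosome kinase Aurka 69.8 and the checkpoint kinase Bub1 85.1. The small Cdk subunits Cks1b and Cks2 were abundant in both sets, at 480 against 67.8 CPM and 593 against 99.2 CPM, ratios of 7.07 and 5.97. Ratios within this list ranged from 5.38 to 146.

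The switch into mitosis and its transcription factors were called in 11 of 13 genes. Foxm1, which drives late cell cycle genes, stood at 23.1 CPM against 0.421 CPM, a ratio of 54.9 (29.9 to 112). Cdc25c, the phosphatase that activates Cdk1, had a ratio of 106 (44.5 to 332; 5 UMIs in P-zero cells), while its opponents Wee1 and Pkmyt1 had 2.31 and 9.34. E2f7 and E2f8, repressors of the G1/S programme, had ratios of 40.8 and 30.9. Lin54, the MuvB subunit that contacts CHR elements, had 4.77. E2f1 at 1.37 and Cdc25a at 1.66 were not called.

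Genes of the anaphase-promoting complex and its checkpoint were called higher in 6 of 14. These held the inhibitors and partners: Fbxo5 (Emi1), which restrains the complex (27.3), the checkpoint protein Mad2l1 (110 against 5.59 CPM; 19.7), Ube2s, the enzyme that extends its ubiquitin chains (733 against 163 CPM; 4.49), Bub3 (2.26), Fzr1 (2.08) and Espl1. Espl1 had 2 UMIs in P-zero cells and stood at 17.7 against 0.0766 CPM. Anapc11, the catalytic subunit, sat at the threshold, with 265 against 133 CPM, and was not called. The securin gene Pttg1 stood at 146 against 118 CPM, a ratio of 1.24.

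Kinetochore genes, whose proteins join chromosomes to spindle fibres, were called higher in 18 of 19, at a median ratio of 31.9. Cenpa, the histone variant that marks centromeres, had 445 CPM against 11.6 CPM and was detected in 43.8% of dividing cells and 1.61% of P-zero cells at equal depth. Ndc80, the microtubule-binding core, had a ratio of 114 (69.8 to 202), the kinesin Cenpe 67.1, the cohesin protector Sgo1 59.0 and the scaffold Knl1 58.0. Zwint, at 1.34, was the gene of this list not called.

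Spindle genes were called higher in 23 of 23, with a summed level of 2070 CPM against 106 CPM. Hmmr had 154 against 1.15 CPM (ratio 134, interval 93.3 to 199). Aspm, which holds spindle poles together, had a ratio of 99.3, the kinesins Kif14, Kif20a and Kif20b had 81.6, 75.9 and 50.9, and Tpx2, the activator of Aurora A, had 17.1. Ckap5, a microtubule polymerase with roles outside mitosis, had the smallest, 3.01. Genes of cytokinesis were called in 12 of 12, at 1304 CPM against 74.1 CPM. Among them Iqgap3 had a ratio of 89.8, the midbody protein Cep55 50.2, the RhoA activator Ect2 32.7, the centralspindlin subunit Racgap1 32.3, the midzone bundler Prc1 28.0 and anillin (Anln) 20.8.

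**Figure D2:**
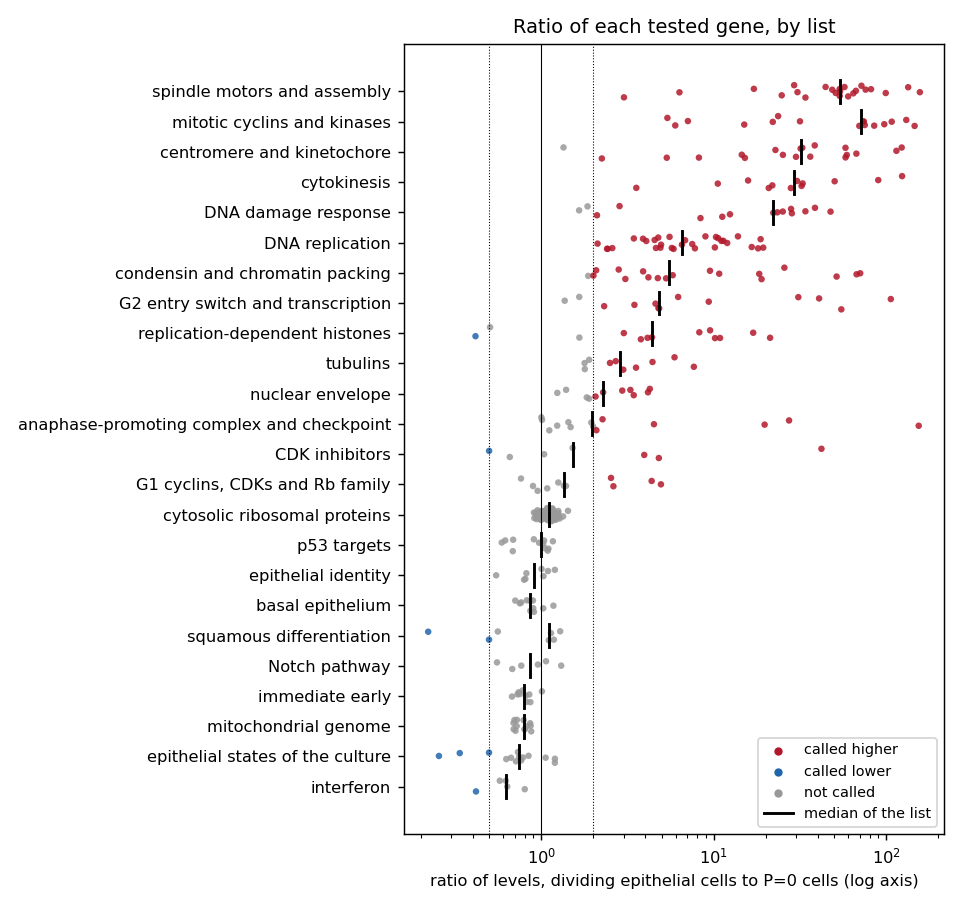
Ratio of each tested gene's level in dividing to P-zero epithelial cells (log axis), 1 point per gene, grouped by gene list; red is called higher, blue lower, and counts under 3 UMIs were set to 3. Spindle, cytokinesis and cyclin lists lie wholly to the right of 2, while basal, epithelial identity, Notch and p53 target genes lie around 1.

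Chromatin and nuclear structure genes were higher by smaller ratios. Of 18 tested genes of condensin and chromatin packing 17 were called higher, with a median ratio of 5.53. Mki67, the coat protein of mitotic chromosomes (chromosome 7, 135689784 to 135716361, mm10), stood at 270 against 4.02 CPM, a ratio of 67.2 (55.2 to 82.6), and condensin subunits Ncaph, Ncapg and Smc2 had 70.6, 51.5 and 25.6. The abundant proteins that pack or bend DNA had more modest ratios: Hmgb1 had 2434 against 793 CPM (3.07) and the histone variant H2afz 2004 against 515 CPM (3.89). Of 11 tested genes of the nuclear envelope 7 were called higher: Nup107 (4.25), lamin B1 (Lmnb1; 4.15), Lbr (3.43), Tmpo (3.28), Nup37 (2.94), Ran (1430 against 627 CPM; 2.28) and Rcc1 (2.06). Lmna at 1.39 was not. Tubulins and the tubulin-binding Stmn1 were called in 7 of 10, with Stmn1 at 788 against 103 CPM (7.66) and Tubb5 at 2161 against 724 CPM (2.98).

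Histone genes went both ways. Of 13 tested, 10 were called higher and 1 lower. Hist1h1b, a linker histone, stood at 278 against 13.1 CPM (21.2) and Hist1h2ae at 208 against 19.1 CPM (10.9). Hist1h2bc was called lower, at 211 against 509 CPM, 2.41-fold (2.29 to 2.54), and was detected in 22.1% against 45% of cells at equal depth. The linker histone Hist1h1c was at 143 against 284 CPM and was not called. Most histone messages of S phase end without a poly(A) tail, so 3' poly(A) capture counts only part of them. Histones and tubulins have near-identical copies, and Hmgb1, Ran and Cks1b have processed pseudogenes, so reads may be split and values of single genes are uncertain.

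All 31 tested replication genes were called higher, with a median ratio of 6.53 and a sum of 2290 CPM against 483 CPM. Mcm10 and Cdc6, which load and fire the replicative helicase, had ratios of 19.3 and 18.1, the nucleotide synthesis gene Rrm2 16.6, and the maintenance methylation factor Uhrf1 13.8. The sliding clamp Pcna had 146 against 42.4 CPM (3.44) and the licensing inhibitor Gmnn 2.58. Genes of the DNA damage response were called in 13 of 15, including the checkpoint adaptor Clspn (47.5), Rad51ap1 (38.6) and Brca1 (28.0), many of which are also transcribed in S phase. Outside the lists, ranked first was Mxd3, a Myc-network repressor (27.1 against 0.153 CPM; 177, interval 68.1 to 656, 4 UMIs in P-zero cells). Pclaf, a Pcna partner, was the most abundant of the 20 named by ratio (455 against 4.75 CPM; 95.8, 80.0 to 116).

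Genes of G1 differed less. Of 11, 4 were called higher: Rbl1 (4.93), Ccne2 (4.36), Cdk2 (2.62) and Ccne1 (2.53). Cyclin D1 (Ccnd1) was at 283 against 209 CPM, cyclin D2 (Ccnd2) at 369 against 484 CPM and Cdk4 at a ratio of 1.25, none of them called.

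The genes removed in this line can be read too, with the caution that counted 3' ends may lie outside the deleted part and say nothing of the protein. Trp53 had 48.6 against 51.8 CPM, a ratio of 0.937 (0.830 to 1.05). Cdkn2a had 386 against 589 CPM (0.656, 0.630 to 0.683), and was found in 37.3% against 52.5% of cells at equal depth. Notch1, which is not edited in this line, had 32.2 against 24.7 CPM (1.30). None was called. Cdk inhibitors differed in both directions. Cdkn3, a phosphatase that acts on Cdk1 and Cdk2, was at 54.8 against 1.30 CPM (42.1), and Cdkn2d and Cdkn2c had 4.8 and 3.95. Cdkn2b, the neighbour of Cdkn2a, was at 110 against 220 CPM, 2.01-fold lower (1.87 to 2.17), a call at the threshold that 6 of 12 alternative settings did not give. Of 12 tested p53 targets 0 were called, with a median ratio of 0.997, and Cdkn1a had 1.04. Over all tested genes 5.85% were called higher and 1.62% lower, so 0 calls in a list this small say little.

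None of 11 tested basal genes and none of 8 identity genes was called, with median ratios of 0.863 and 0.910 against 0.968 over all tested genes. With 5.85% of all tested genes called higher and 1.62% lower, 0 calls in lists this small say little. Keratins 14 and 17, of the basal layer, had 1466 against 1248 CPM and 1576 against 1537 CPM, and keratin 5 had 668 against 738 CPM. Ribosomal protein genes (0 of 80 called, median 1.11) and the 13 mitochondrial genes (0 called, 0.789) were also within 2-fold.

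The genes called lower with the largest ratios were Tcp11l2 (2.91 against 21.7 CPM), Sprr2d, the cholesterol exporter Abca1 (2.49 against 18.1 CPM) and the macrophage elastase gene Mmp12 (1.80 against 10.7 CPM). Sprr2d, a protein of the cornified envelope, stood at 6.78 against 49.5 CPM, 7.30-fold lower (5.49 to 9.92). At equal depth it was found in only 0.278% of dividing and 1.92% of P-zero cells, with up to 67 UMIs in a single P-zero cell. The interval covers counting error and not this spread between cells. Keratin 13 (Krt13), the keratin of differentiated esophagus, was at 2.21 against 10.0 CPM and Psca at 3.18 against 15.1 CPM, 4.53-fold and 4.75-fold lower. These were rare too, with Krt13 in 0.710% and Psca in 1.35% of P-zero cells at equal depth. Of 12 alternative settings, 4 did not give the call of Krt13, and 3 each did not give those of Mmp12 and Ly6d. Sprr2d was called in all 12, at ratios between 0.0512 and 0.143 beside 0.137. The antimicrobial proteins Ltf and Lcn2 were at 21.4 against 84.2 CPM and 135 against 401 CPM, 3.93-fold and 2.97-fold lower. Ly6d had 639 against 1285 CPM, 2.01-fold lower (1.95 to 2.08). Of 7 tested squamous genes 2, Krt13 and Ly6d, were lower and the other 5 were not called. The median ratio of the 7 was 1.10, against 0.968 over all tested genes, so the list was not lower by this measure. By its sum it was lower, at 1214 against 1899 CPM, a ratio of 0.640 (0.625 to 0.654). Ly6d made up 639 and 1285 CPM of these sums. Sprr2d and Psca are outside this list, and 9 of its 16 genes were under 10 CPM in both sets. Among 14 genes that mark states of this culture 3 were lower: Ltf, Lcn2 and Ly6d.

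Of 3 tested nuclear noncoding RNAs 2 were called lower. Malat1 had 9952 against 22361 CPM, 2.25-fold lower, and Neat1 148 against 358 CPM, 2.42-fold lower, while Kcnq1ot1 had 39.4 against 44 CPM and was not called. Malat1 was found in nearly every cell of both sets, and its median was 12 against 27 UMIs per cell at equal depth. Depth moved with this difference. With cells gated and measured at equal depth the Malat1 ratio was 0.506, outside the call, and it was 0.464 among cells with 2000 to 5000 UMIs and 0.429 without the 10% of cells with the most UMIs. Neat1, at 0.439, 0.448 and 0.387 in the same order, was called in all 12 alternative settings.

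**Figure D3:**
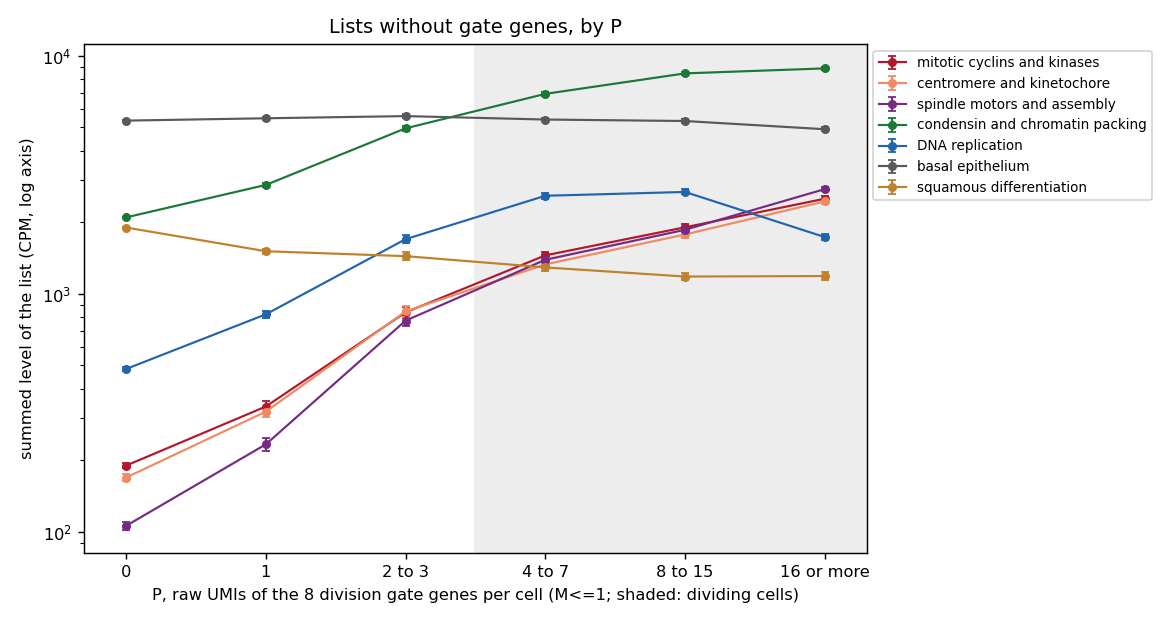
Levels (CPM, log axis) against P, in epithelial cells with P of 0, 1, 2 to 3, 4 to 7, 8 to 15 and 16 or more. Error bars are exact Poisson 95% intervals and shading marks the dividing cells. The spindle list goes from 106 to 2754 CPM, while the replication list peaks at 2679 CPM in cells with P of 8 to 15.

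Levels also varied with how much P a cell held. The 23 spindle genes summed to 106 CPM at P of 0, 233 at 1, 772 at 2 to 3, 1390 at 4 to 7, 1858 at 8 to 15 and 2754 at 16 or more. The 33 replication genes, as the plot of levels by P shows, went from 483 to 820, 1697, 2582 and 2679 CPM and then to 1732 CPM at the highest class. Hist1h1b followed a like course, from 13.1 to 389 CPM at P of 8 to 15 and 224 CPM at 16 or more. Basal genes stayed between 4916 and 5581 CPM. Deeper cells hold more P, and the classes had median depths of 2713 to 4533.5 UMIs.

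A second split used genes outside the gate. L was the number of UMIs of Plk1, Ccnb1, Cenpe, Cenpa, Kif20a, Hmmr, Aurka and Tpx2 at a depth of 1500 UMIs, which 1799 of the 1839 cells reached. L was 0 to 1 in 915 cells (50.9%), 2 to 3 in 569 (31.6%) and 4 or more in 315 (17.5%), a range and not types. Median depths were 3960, 3794 and 3781 UMIs. P rose with L, with medians of 9, 13 and 18, so this split is not separate from the split by P. Of 8684 genes tested, 64 (0.737%) were called higher and 77 (0.887%) lower at L of 4 or more than at 0 to 1.

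Spindle genes outside L were called higher in 10 of 20, and replication genes lower in 19 of 33, at a sum of 1477 CPM with high L against 2734 with low L and 2024 between. At equal depth 68.4% of cells with low L (65.3% to 71.4%) and 34.6% with high L (29.4% to 40.1%) held 3 or more replication UMIs. The genes that follow were named after their values were seen. Cyclin B2 (Ccnb2) went from 112 to 176 and 266 CPM across the classes, Cdkn3 from 31.5 to 67.7 and 97.1, Aspm from 37.8 to 76.1 and 119, and Arl6ip1 from 602 to 1058 and 1488. Sapcd2, which orients the spindle, went from 2.72 to 6.19 and 15.4 CPM, and Cep89, of the centriole, from 12.2 to 29.2 and 49.4. In the other direction Cdc6 went from 19.3 to 6.64 and 2.43 CPM, the licensing factor Cdt1 from 31.0 to 12.8 and 5.66, E2f1 from 15.8 to 8.85 and 3.24, and Pcna from 181 to 121 and 86.6. Of 55 matched promoters of the 64 higher genes 65.5% held CCAAT and 49.1% TTTGAA, beside the shares of tested genes given above. A promoter was matched for 58 of the 77 lower genes (75.3%, against 85.9% of the higher genes), which limits a comparison. Of these 55.2% held CCAAT and 6.9% TTTGAA. The CCAAT share was thus above the 39.3% of tested genes in both sets, and the TTTGAA share was above their 12% in the higher genes only.

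**Figure D4:**
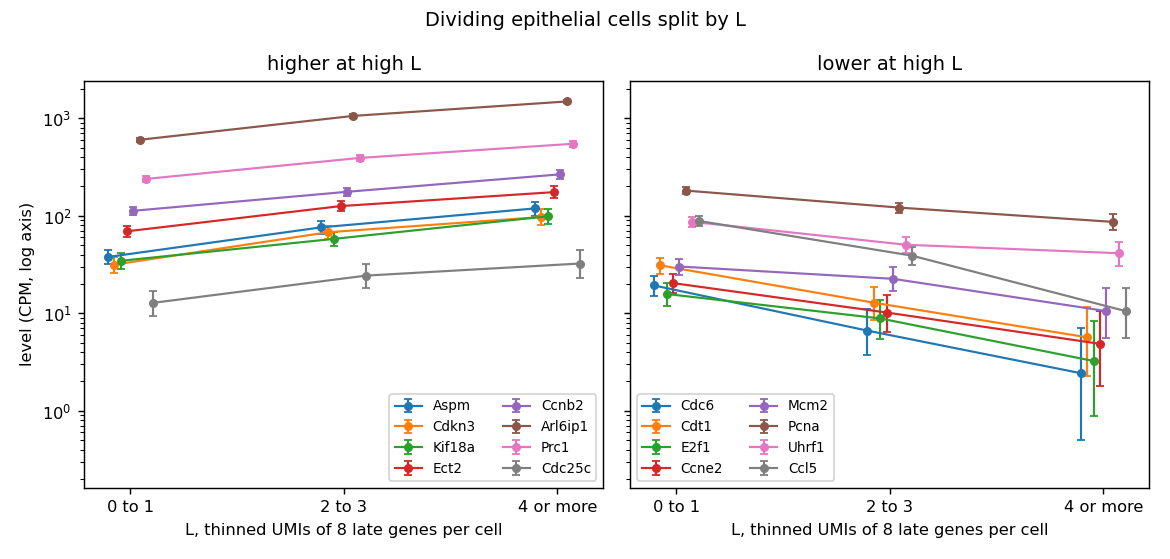
Levels (CPM, log axis) in dividing epithelial cells split by L, the UMIs of 8 mitotic genes per 1500, with exact Poisson 95% intervals. Replication genes such as Cdc6 and Cdt1 go down and genes such as Ccnb2, Cdkn3 and Aspm go up from 915 cells of low L to 315 of high L.

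RNA content was read from cells gated at equal depth, since a gate on raw counts favours deep cells. Cells with M of 0 and at least 2 UMIs of P per 1500 had a median of 3665 UMIs (3592 to 3750) before thinning. They were 1799 in number by another rule than above, and 1591 of them are among the 1839. The 8747 cells with M and P of 0 per 1500 had 2998 (2967 to 3022), a ratio of 1.22. At 1500 UMIs they held 924 and 904 genes. Doublets, which also hold more RNA, were not removed, and their part was not tested.

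The share of dividing cells differed with genes that mark epithelial states. Of 11922 cells with M of at most 1 at equal depth, 15.5% (14.8% to 16.1%) had 2 or more UMIs of P. This gate is looser than M of at most 1 in raw counts, which 11472 cells deep enough for thinning met. The 11922 cells thus include some with a raw M of 2 or more, which are outside the epithelial cells defined above. Among the 518 cells with a UMI of Ltf, which encodes lactoferrin, the share was 6.95% (4.91% to 9.49%), against 15.9% (15.2% to 16.6%) in cells without. Cells with more than 1 UMI of Ly6d had 11.2% (10.1% to 12.5%) against 17.3% (16.5% to 18.2%). With Ch25h the shares were 11.7% (10.0% to 13.5%) and 16%. For Krt5 they were 12.1% (10.5% to 13.9%) in cells with more than 2 UMIs and 16.8% (15.8% to 17.9%) in cells with 0, and for Wfdc18 13.2% (12% to 14.5%) in cells with more than 15 UMIs and 16% (14.9% to 17.1%). Spp1, at 13.8% (12.5% to 15.3%) against 15.9% (15.1% to 16.6%), and Krt7, at 17.3% (15.3% to 19.3%) against 15.2% (14.6% to 15.9%), had overlapping intervals. Spp1 was at 4918 CPM in mesenchymal-like cells with P of 0 and at 281 CPM in P-zero epithelial cells. The part of cells with a raw M of 2 or more in these shares was not tested.

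**Figure D5:**
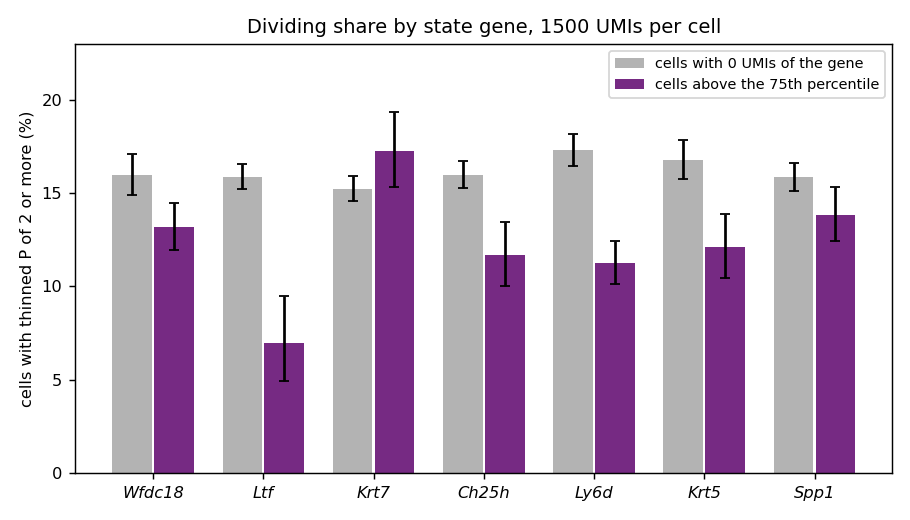
Share of cells with 2 or more UMIs of P (y axis, percent), in cells with 0 and with a high number of UMIs of each state gene. All cells had M of at most 1, with M and every other count read at 1500 UMIs. Bars are exact binomial 95% intervals. Ltf shows the widest gap, 15.9% against 6.95%.

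Dividing mesenchymal-like cells are other cells of the same culture, chosen by the same P. Genes that go with P can be called in both contrasts through this choice, so shared calls are no evidence of their own. There were 76 with M and P of at least 4, 5.29% (4.19% to 6.58%) of 1436 cells with M of at least 4, compared with 1144 with P of 0. Of 9091 genes tested there, 482 (5.3%) were called higher and 157 (1.73%) lower. Of the 514 genes higher in dividing epithelial cells 468 were tested in both, and 329 (70.3%) were called higher and 0 lower; from the other side, 73.4% of the genes called higher in mesenchymal-like cells and tested in both were higher in epithelial ones. Ccnb1 had 132 against 2.0 CPM, Mki67 216 against 3.0 and Cenpa 521 against 14.0. Of the 142 lower genes 99 were tested in both, of which 18 (18.2%) were lower and 2 higher. Hist1h2bc was lower in both (185 against 465 CPM), whereas Malat1 at a ratio of 0.603 was not called there. Ly6d was called higher there, at 101 against 47.5 CPM, the opposite of its call in epithelial cells. The difference between lineages was not tested. Epithelial identity genes summed to 342 CPM in the 76 cells and 191 CPM in the others, and median depth was 4587 against 3394.5 UMIs. Both moved with the contrast, doublets were not removed, and the part of these was not tested.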

How the data were processed

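Single-cell RNA was counted in 1 culture. The deposited matrix holds UMI counts per gene and barcode that the authors made with CellRanger 8.0.1, per the file headers, on mm10, per the submitters' processing notes, which also list Scanpy 1.8.2. No source used here gives the annotation or names the library behind the reads. The matrix has 32285 mouse genes and 2 added sequences, and 32158 gene IDs matched GENCODE M21.

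Members and lists were chosen with earlier results of these data known. UMIs were summed over cells (Python 3.11.15, numpy 2.4.6, scipy 1.17.1, pandas 2.3.3). Levels carry exact Poisson, ratios conditional binomial and shares Clopper-Pearson 95% intervals. Counts under 3 UMIs were set to 3 for ranking. Cells were thinned at random to 1500 UMIs, which left out 1644 kept cells. The calling code was checked on simulated counts with known fold changes.

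Named were the gate genes, Trp53, Cdkn2a and Notch1, the 20 higher and 15 lower genes with the largest ratios and, per list, up to 5 called genes each way and 3 with the most UMIs. Other list genes, and those of the split by L and of the closing section, were picked after their values were seen. Alternatives changed the gates, filters, scaling, depth and thresholds. A gene of the replication list is not reported here.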

Additional observations from a re-analysis of the deposited data

How the results depend on the processing

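The number of genes called higher in dividing cells was 210 with a minimum of 50 CPM and 926 with a ratio of at least 1.5. The number called lower was 40 with 50 CPM, 372 with no minimum and, at a ratio of at least 1.5, 740 genes. The share of epithelial cells in the gate was 17.5% with at least 1000 genes and 2000 UMIs, 15.7% with P of at least 3, 11.4% with P of at least 6 and 11% without the 10% of cells with the most UMIs. The ratio of RNA per cell was 1.28 with thinning to 1000 UMIs. The causes were not tested. Of 122 called genes among 175 named, 112 kept their call in all 12 alternatives run on single genes, and 0 reversed. Calls were lost for Cdkn2b in 6 (ratios 0.501 to 0.517), Krt13 and Sprr2e in 4 each, Ly6d in 3 (0.513 to 0.518), Mmp12 in 3, Cfap299, Ifit3 and Pkmyt1 in 2 each, and E2f7 and Malat1 in 1 each. Anapc11 gained one in 4 (2.0 to 2.08). No paired analysis was possible because each set of cells came from 1 sample with no replicates. For the same reason no difference has a replicate check, and depth limits genes near 10 CPM.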

Other observations

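The reporter sequences were lower in dividing than in P-zero epithelial cells without a call, GFP at 11956 against 15925 CPM and Scar at 11015 against 15455 CPM. Of 5 tested interferon genes Ifit3 was called lower (5.53 against 13.2 CPM) and 4 were not called. The median ratio of the 5 was 0.622. The whole list of 8 summed to 292 against 461 CPM, a ratio of 0.634 (0.605 to 0.664). Of 10 tested immediate early genes, 6 Notch pathway genes and 10 glycolysis genes none was called, with median ratios of 0.794, 0.860 and 0.895. Such small lists without a call are near the shares over all tested genes, 5.85% higher and 1.62% lower.

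Of the 77 genes (0.887% of those tested) called lower in dividing cells with L of 4 or more, 4 are given here as values only. Ccl5, a chemokine, was at 88.6 CPM with L of 0 to 1, 38.9 with 2 to 3 and 10.5 with 4 or more. Ccl7 was at 38.6, 20.8 and 9.71 CPM, Ccl2 at 355, 264 and 163 CPM, and Tnf at 41.3, 30.1 and 16.2 CPM. These genes were singled out after their values were seen, and no list made of chemokines or cytokines was counted. Ccl2 is in the list of 14 genes that mark states of this culture, of which 2 were called lower with L of 4 or more.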
